A study of Homo sapiens with 21 samples.

Results

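The S100 calcium-binding protein genes described here were 10 genes, S100A4, S100A6, S100A8, S100A9, S100A10, S100A11, S100A13, S100A14, S100A16 and S100P, taken by their gene names from a table of 58735 genes. They were followed across all 7 groups of an RNA-seq experiment in MDA-MB-453 cells, an established human breast cancer line that lacks the estrogen receptor. In these cells 8 of the 10 genes had a mean of at least 0.5 FPKM (fragments scaled by gene length and by the depth of the library) over the 21 libraries and could be tested. The other 2, S100A4 and S100A8, were at or near 0. The largest difference among the 8 was that of S100A6, which was 16.5-fold higher after calcium than in untreated cells and this rise was smaller, by a direct test, in cells that also received diethylstilbestrol.

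S100 proteins are small proteins that carry a pair of EF-hands, the helix-loop-helix motif that holds a calcium ion. When intracellular calcium rises, most of them open a hydrophobic surface and bind target proteins, among them annexins, cytoskeletal proteins and enzymes. S100A10 is the exception, since its loops no longer bind calcium and it sits in a constant complex with annexin A2 (ANXA2). Some members, such as S100A8, S100A9 and S100P, are also secreted and act on receptors such as AGER, the receptor for advanced glycation end products. In epithelial tissues several members are switched on with differentiation or in tumors, and most of the S100A genes lie side by side in a cluster on chromosome 1.

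The study asked whether calcium and cadmium, a metal that can take the place of calcium, act through ESRRB (estrogen-related receptor beta), an orphan nuclear receptor. There were 3 libraries in each group, and all groups were wild-type MDA-MB-453 cells. The controls received no treatment, and the other groups received 10 mM calcium, 10 µM cadmium, 5 µM GSK4716 (an ESRRB agonist) or 10 µM diethylstilbestrol (DES, an ESRRB antagonist) for 24 h, or DES for 3 h followed by calcium or cadmium at the same doses for 24 h. The labels place calcium and GSK4716 in medium without serum and cadmium in medium with a low level of charcoal-stripped serum, and they give 1 control group. So the medium, and the ethanol that carried GSK4716 and DES, cannot be told apart from the treatments where they differed from the control. Nothing states that the replicates came from separate cultures, so the p-values measure the spread between these libraries, which may be technical. In RNA from whole cultures, a higher level in every cell and a larger share of cells that express a gene cannot be told apart.

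The FPKM values could be turned back into whole fragments, and these came to between 14435925 and 28424805 on genes per library, with a median of 18314738. All 10 of the markers of luminal breast epithelium that were checked had a mean of at least 0.5 FPKM. The estrogen and progesterone receptor genes ESR1 and PGR together reached at most 0.199 FPKM in any library. None of 8 myeloid markers had a mean of 0.5 FPKM, and their summed level was between 0.0136 and 1.35 FPKM per library. Of 9 squamous markers, 2 had such a mean.

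The genes lie at the following places on GRCh38.p14, as the deposited table gives them. S100A10 (ENSG00000197747) is at chr1:151982915-151994390, and S100A11 (ENSG00000163191) is at chr1:152032506-152047907. S100A9 (ENSG00000163220) is at chr1:153357854-153361027, and S100A8 (ENSG00000143546) at chr1:153390032-153391188. S100A6 (ENSG00000197956) is at chr1:153534599-153536244, and S100A4 (ENSG00000196154) at chr1:153543613-153550136. S100A16 (ENSG00000188643) is at chr1:153606886-153613145, S100A14 (ENSG00000189334) at chr1:153614255-153616986 and S100A13 (ENSG00000189171) at chr1:153618787-153631360. Of these 9 genes, S100A9 is on the plus strand and the other 8 are on the minus strand. S100P (ENSG00000163993) stands alone at chr4:6693069-6697170 on the plus strand. In the GENCODE annotation the reference transcripts of these genes code for between 90 (S100A6) and 114 (S100A9) amino acids, and 7 of the 10 are built of 3 exons with 2 that code.

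The stretches of 250 bases before the start sites of the 4 genes that rose with calcium are shown because limma called these genes higher after calcium, and because the study's question concerns a factor that binds promoters. They are RefSeq sequences of GRCh38.p14, all on the minus strand and written 5′ to 3′ toward the start site. Capitals mark a match to the core of a metal response element (MRE), the site bound by the metal-sensing factor MTF1.
S100A6, chr1:153535992-153536241: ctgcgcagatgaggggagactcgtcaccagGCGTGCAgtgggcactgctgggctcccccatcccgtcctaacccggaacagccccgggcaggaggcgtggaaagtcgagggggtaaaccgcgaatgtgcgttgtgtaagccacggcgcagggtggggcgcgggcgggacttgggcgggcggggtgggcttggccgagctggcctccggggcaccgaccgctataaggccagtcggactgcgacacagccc
S100A10, chr1:151993860-151994109: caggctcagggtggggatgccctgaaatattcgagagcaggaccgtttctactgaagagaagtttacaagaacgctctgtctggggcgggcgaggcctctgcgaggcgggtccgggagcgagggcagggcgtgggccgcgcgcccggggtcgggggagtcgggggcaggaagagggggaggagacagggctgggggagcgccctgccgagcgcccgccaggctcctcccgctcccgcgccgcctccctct
S100A11, chr1:152037005-152037254: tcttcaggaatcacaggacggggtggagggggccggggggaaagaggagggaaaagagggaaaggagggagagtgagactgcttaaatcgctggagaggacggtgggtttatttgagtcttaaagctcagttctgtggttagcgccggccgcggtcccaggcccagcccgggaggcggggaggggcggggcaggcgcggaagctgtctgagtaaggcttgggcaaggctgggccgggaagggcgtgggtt
S100A13, chr1:153627240-153627489: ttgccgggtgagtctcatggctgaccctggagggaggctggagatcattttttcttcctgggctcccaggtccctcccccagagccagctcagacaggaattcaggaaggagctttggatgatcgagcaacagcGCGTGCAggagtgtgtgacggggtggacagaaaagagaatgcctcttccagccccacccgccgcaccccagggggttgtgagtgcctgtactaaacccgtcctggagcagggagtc
This start of S100A13 was chosen for printing because it holds the match, and the other 2 starts of the gene hold none. The stretches are rich in G and C, at 70% for S100A6, 71.2% for S100A10, 63.6% for S100A11 and 60% for this start of S100A13, beside a median of 58% over 35116 promoters.

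All 10 genes matched the RefSeq promoter windows, with 15 start sites, and 3 motifs were searched on both strands over the 250 bases before and the 50 after each start. The estrogen-related receptor element, searched as TNAAGGTCA, was in none of the 15 windows and in 0.951% of all 35116. The AP-1 site, searched as TGANTCA, was also in none of the 15 and in 7.71% of all windows. The MRE core, searched as TGCACNC or TGCGCNC, was in 3 of the 15 and in 29.6% of all windows. It began 220 bases before the start of S100A6 and 116 bases before 1 of the 3 starts of S100A13, as shown above, and 26 bases after the start of S100A11. A match describes these letters only, and the absence of one says nothing of binding elsewhere.

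In untreated cells the mean levels of the S100 genes fell into 3 tiers, and all values below are FPKM, which is per gene length. The highest tier held S100A16, S100A14 and S100A11, which carried 96.0% to 97.4% of the summed FPKM of the 10 genes in the control libraries. S100A16, a broadly expressed member, was at 627, 551 and 965 FPKM in control replicates 1, 2 and 3. S100A14, a member found mainly in epithelia, was at 443, 443 and 699 FPKM. These 2 genes overlapped, and both lay above S100A11 (calgizzarin, an annexin-binding member) at 282, 299 and 384 FPKM. Over all 21 libraries S100A16 ranked at place 22, S100A14 at 38 and S100A11 at 54 among all genes by mean FPKM.

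The middle tier held S100A10, S100A13 and S100A6. S100A10 was at 9.40, 17.0 and 32.6 FPKM in the controls, S100A13 (a member that takes part in the release of growth factors such as FGF1) at 19.5, 20.8 and 17.0, and S100A6 (calcyclin) at 5.29, 7.95 and 11.3. The values of S100A10 overlapped those of both others, while S100A13 lay above S100A6 in every control library. The lowest tier held S100A9 and S100P, whose control values overlapped, at 0.912, 7.14 and 0.629 FPKM and at 0.411, 0.629 and 1.09 FPKM. Single values overlapped between the lower tiers, since S100A9 at 7.14 FPKM in control replicate 2 was above S100A6 at 5.29 in control replicate 1. The order of the group means differed with treatment in the lower tiers. S100A6 stood below S100A10 and S100A13 in the controls and above both after calcium, and S100A13 stood above S100A10 in the 3 groups that received DES. In the cadmium group the mean of S100A14 (588 ± 73.8 FPKM, SD, n = 3) was above that of S100A16 (572 ± 17.9), but the values overlapped.

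**Figure D1:**
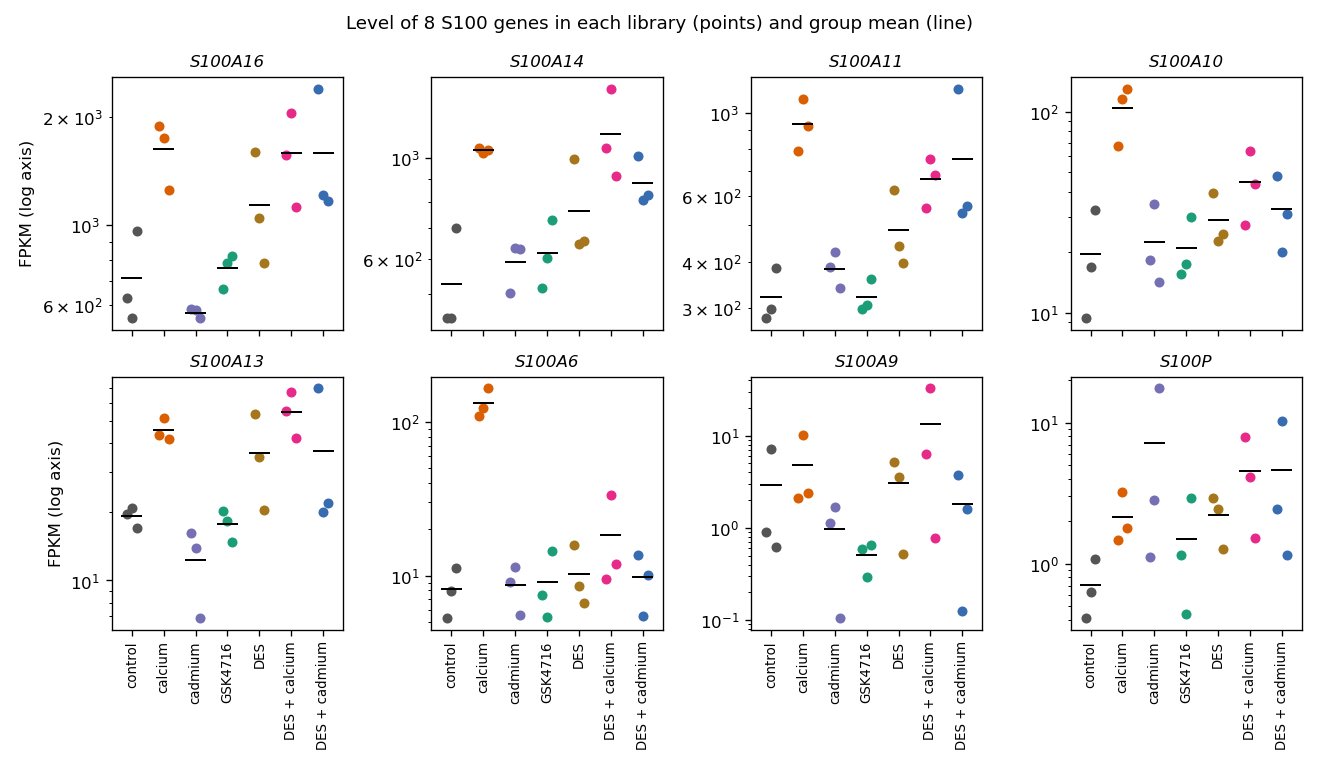
FPKM on a log axis of the 8 S100 genes with a mean of at least 0.5 FPKM, by group, with 1 point per library (replicates 1, 2 and 3 from left to right) and a line at the group mean. S100A6 stands at 109 to 165 FPKM in the 3 calcium libraries and at no more than 33.3 in the other 18.

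Calcium treatment gave the clearest pattern in the family. S100A6 rose 16.5-fold, S100A10 5.77-fold, S100A11 2.90-fold and S100A13 2.38-fold, which are fold changes of FPKM + 0.1. The other 4 tested genes had higher means after calcium but did not pass the test. So 4 of the 8 tested genes were called higher and 0 lower, where 7.12% of all 14686 genes tested were called in either direction (limma with Benjamini-Hochberg adjustment at 0.05). The median log2 fold change was 1.37 over the 8 S100 genes and -0.01 over all genes tested. In 7 of the 8, all 3 calcium libraries lay above all 3 controls, as did 16% of all genes. The members were chosen with earlier results of these data known, so these shares describe them and do not test the family. Of the further family genes that passed the filter, S100A2 rose by 2.35 on the log2 scale. S100A1 and S100PBP did not pass the test, at -0.20 and -0.05. Together the 10 genes summed to 3896 ± 307 FPKM (SD, n = 3) after calcium and to 1615 ± 430 in the controls. The sum was 2476 ± 757 after DES alone, 3518 ± 832 when calcium followed DES and 3318 ± 1206 when cadmium did. The depth by which the authors scaled FPKM differed between these groups. Its ratio to the fragments on genes was 1.08 to 1.15 in the controls and 1.01 to 1.06 with calcium. It was 0.908 to 1.05 with DES, 0.862 to 0.944 with DES and calcium and 0.693 to 0.960 with DES and cadmium. A lower ratio makes FPKM values higher, so the sums differ in scaling as well as in treatment. S100A16, S100A14 and S100A11 carried 90.4% to 94.4% of the sum in the calcium libraries, and the first 2 of these did not pass the test.

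S100A6 is a small cytoplasmic member that binds CACYBP and several annexins and is known from proliferating and differentiating epithelia. It was at 109, 123 and 165 FPKM in the calcium libraries against 5.29, 7.95 and 11.3 in the controls. The lowest calcium library was thus far above the highest control. The log2 fold change was 4.04 ± 0.30 (SE, 95% confidence interval 3.31 to 4.78) with an adjusted p of 0.0083 in limma.

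S100A10, the partner of annexin A2 at the plasma membrane, was at 67.9, 115 and 130.2 FPKM after calcium against 9.40, 17.0 and 32.6 in the controls. The groups did not overlap, although the controls spread widely. Its log2 fold change was 2.53 ± 0.48 (95% confidence interval 1.35 to 3.71, adjusted p = 0.0367, limma).

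S100A11 was at 790.2, 1086 and 925 FPKM after calcium against 282, 299 and 384 in the controls, again without overlap. Its log2 fold change was 1.54 ± 0.22 with an adjusted p of 0.0195 in limma. S100A13 was at 43.4, 51.7 and 42.0 FPKM after calcium against 19.5, 20.8 and 17.0, and it had the tightest replicates of the 4 genes. Its log2 fold change was 1.25 ± 0.13, with an adjusted p of 0.0109 in limma.

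The 2 most abundant members lay above the controls and passed the test only in some settings. S100A16 was at 1894, 1749.8 and 1251 FPKM after calcium, all above the highest control of 965, with a log2 fold change of 1.21 ± 0.33 (adjusted p = 0.083, limma). S100A14 was at 1052, 1026 and 1044 FPKM, all above the highest control of 699, with a log2 fold change of 1.01 ± 0.25 (adjusted p = 0.0704, limma). In both genes control replicate 3 was the high control. By limma-voom on the recovered fragments both were called higher, with adjusted p of 0.0139 for S100A16 and 0.0132 for S100A14, and of 15 alternatives tried for each, 4 called S100A16 and 5 called S100A14. S100P was at 1.47, 3.22 and 1.78 FPKM after calcium against at most 1.09 in the controls, with a log2 fold change of 1.49 ± 0.43 (adjusted p = 0.101, limma). S100A9 overlapped between the groups, with an adjusted p of 0.571 in limma.

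The number of calls depended on single libraries and on the fit, over the whole table as well as among the S100 genes. Without control replicate 1 or control replicate 2, only S100A6 was still called, while the calls over all genes went from 1046 to 7 and to 46. Without calcium replicate 1 or calcium replicate 2 only S100A6 and S100A13 were called, with 357 and 285 calls over all genes, and with no filter on low values none of the S100 genes was, with 60 calls among 45127 genes tested. Other settings called more: limma-voom called 6 members and 1551 genes in all, a filter at a mean of 2 FPKM called 6 members and 1147 of 9990 genes, 1 fit of all 7 groups called 5 members and 743 genes, and array weights called 7 members and 2270 genes. In the fit of all 7 groups S100A13 lost its call (adjusted p = 0.0971). The exact permutation test of 3 libraries against 3 cannot go below p = 0.1, so the calls rest on the spread that limma estimated across genes.

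**Figure D2:**
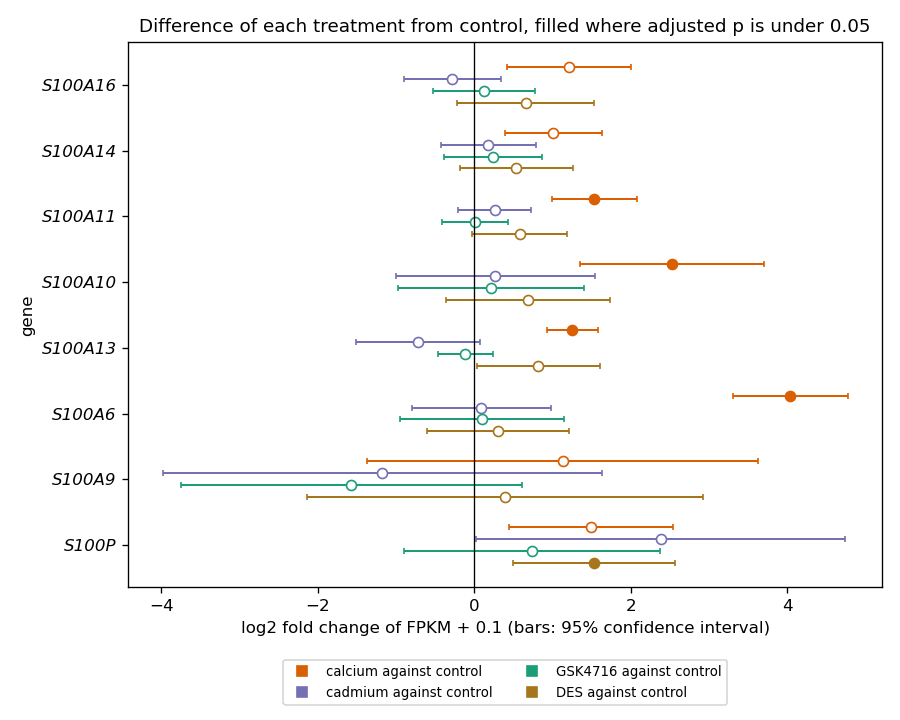
Log2 fold change of FPKM + 0.1 against control for 8 S100 genes after calcium, cadmium, GSK4716 or DES, with 95% confidence intervals and n = 3 libraries per group. Filled points have an adjusted p under 0.05 in limma: 4 of the calcium points, with S100A6 at 4.04, and S100P after DES at 1.53.

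The genes next to S100A6 on the chromosome did not share its level. In gene order on chromosome 1, S100A6 is followed by S100A5, which begins 903 bases beyond its end, then by S100A4 and S100A3. After calcium, where S100A6 had a mean of 132 FPKM, the means of these 3 were 0.0952, 0.0290 and 0.449 FPKM, and in the controls they were 0.0257, 0.0394 and 0.199. None of these 3 passed the filter on low values. The next gene, S100A2, was at 2.40, 3.25 and 2.99 FPKM after calcium against 0.454, 0.453 and 0.541 in the controls. S100A2, a member first described in breast epithelium, rose by 2.35 ± 0.22 on the log2 scale (adjusted p = 0.00951, limma). S100A16, S100A14 and S100A13 follow one another with gaps of 1110 and 1801 bases at the far end of the cluster. S100A13 overlaps the antisense gene S100A1, and the sources state the libraries as directional or non-directional, so reads of the overlap could have been shared between them. S100A1 had a mean of 0.982 FPKM over the 21 libraries beside 31.9 for S100A13. The genes that overlap S100A6 and S100A11 on the opposite strand had means of 0.209 and 0.0321 FPKM. S100A11 also has 13 pseudogenes in the table, of which the highest had a mean of 0.122 FPKM.

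**Figure D3:**
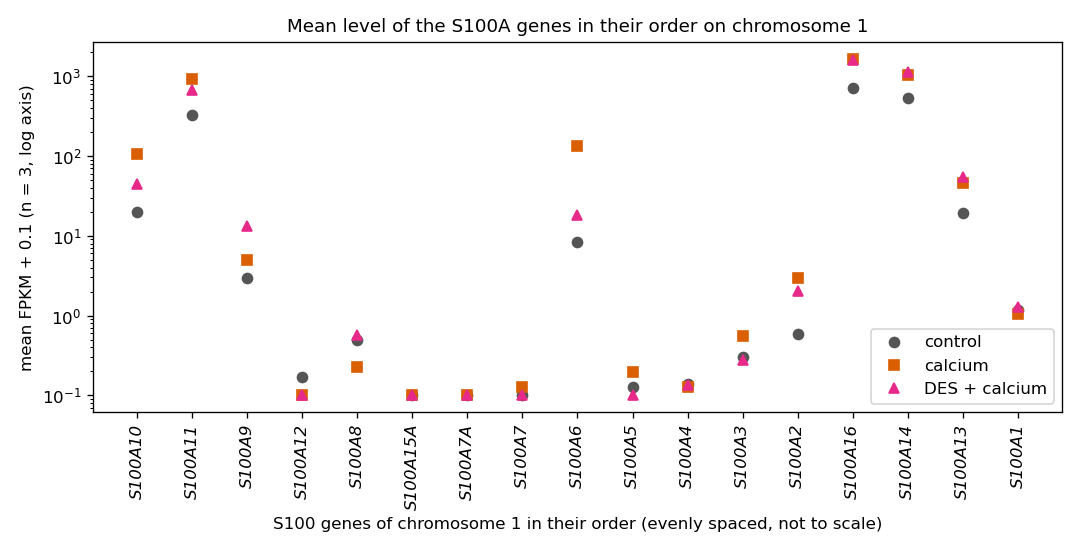
Mean FPKM + 0.1 (n = 3) on a log axis of the 17 S100A genes of chromosome 1 in their order, in control, calcium and DES with calcium; the spacing is even and not to scale. S100A6 stands at a mean of 132 FPKM after calcium between neighbours whose means are under 0.5 FPKM.

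With DES given before calcium, S100A6 did not reach the level it had with calcium alone. It was at 9.51, 33.3 and 11.97 FPKM in the 3 libraries with DES and calcium, all below the lowest calcium library of 109. It was lower by 3.05 ± 0.46 on the log2 scale (8.29-fold, adjusted p = 0.00497, limma) than with calcium alone. S100A10 was at 27.5, 63.9 and 43.6 FPKM, all below the lowest calcium library of 67.9, and was lower by 1.24 ± 0.37 on the log2 scale (2.37-fold, adjusted p = 0.0398, limma). The other 6 tested genes did not pass the test. S100A11, at 555, 754 and 683 FPKM with DES and calcium, also lay below every calcium library but had an adjusted p of 0.144 in limma. S100A16, S100A14, S100A13, S100P and S100A9 overlapped between these groups, and S100A13 had log2 fold change 0.25 (adjusted p = 0.357, limma). So 2 of 8 were called lower and 0 higher, where 35.1% of all genes tested were called, a share above that of these genes. The call for S100A10 was lost without calcium replicate 2 (adjusted p = 0.117) or 3 (0.122) and without replicate 1 (0.106) or 3 (0.0927) of DES with calcium, while that of S100A6 was kept when any library was left out.

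In the presence of DES no member passed the test for an effect of calcium. Against DES alone, the log2 fold change of S100A6 after DES and calcium was 0.69 (95% confidence interval -0.62 to 2.00), since DES alone gave 15.8, 8.58 and 6.59 FPKM. That of S100A10 was 0.60 (-0.27 to 1.47) and that of S100A11 was 0.47 (-0.17 to 1.10). By limma 0 of 8 were called and 0 had an unadjusted p under 0.05, where 0.136% of all genes were called. Limma-voom on the recovered fragments called 0 of 8 and 0 over all genes. With the replicate number as a block, S100A13, S100A14, S100A9 and S100P were higher in 3 of 3 pairs, 1 (S100A13) had an unadjusted p under 0.05, and limma called 0 of 8 (lowest adjusted p = 0.294) and 0 over all genes. All 8 values were positive and lay between 0.47 and 1.32, so intervals that reach above 1 do not show that calcium had no effect under DES.

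The difference between the effect of calcium with DES and without it was tested directly, as an interaction over 12 libraries. For S100A6 it was -3.35 ± 0.65 on the log2 scale (95% confidence interval -4.77 to -1.93) with an adjusted p of 0.0214 in limma. It was the only 1 of the 8 genes called, where 3.63% of all genes were. S100A10 had -1.93 ± 0.63 (adjusted p = 0.114, limma) and S100A11 had -1.07 ± 0.33 (adjusted p = 0.0958, limma). The remaining 5 lay between -0.72 and 0.19. The call for S100A6 was lost without control replicate 1 (adjusted p = 0.0582), without control replicate 2 (0.0566) and with no filter on low values (0.109). The comparisons of calcium with control, of DES with calcium against calcium, and this interaction share the calcium libraries, so they are not independent of one another.

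**Figure D4:**
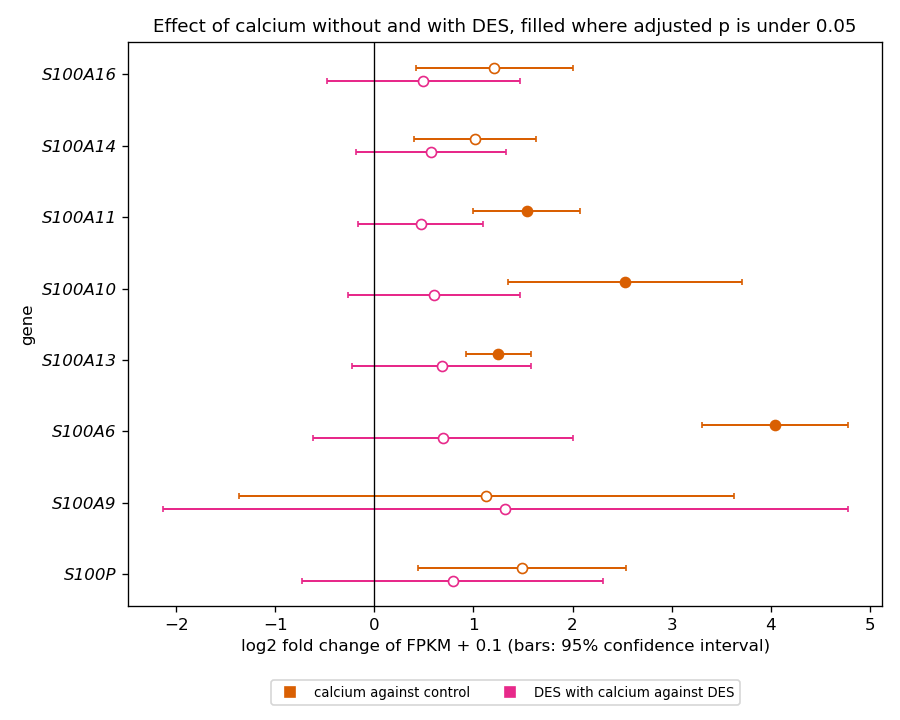
Log2 fold change of FPKM + 0.1 given by calcium, without DES (calcium against control) and with it (DES with calcium against DES), for 8 S100 genes with 95% confidence intervals and n = 3 libraries per group. The values for S100A6 are 4.04 without DES and 0.69 with it; filled points have an adjusted p under 0.05 in limma.

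No S100 gene passed the test after cadmium alone. S100A6 was at 9.06, 11.4 and 5.58 FPKM after cadmium, within or next to the control range, with a log2 fold change of 0.09 (95% confidence interval -0.80 to 0.98). S100A10, at 18.4, 34.8 and 14.3 FPKM, and S100A11, at 387, 424 and 340 FPKM, overlapped the controls. S100A13 was at 16.2, 13.8 and 6.84 FPKM, below all controls, with an adjusted p of 0.223 in limma. S100P was at 1.12, 2.84 and 17.5 FPKM, above all controls, but the spread was wide and its log2 fold change of 2.39 ± 0.97 had an adjusted p of 0.189 in limma. By limma 0 of 8 were called and 1 (S100P) had an unadjusted p under 0.05, where 0.15% of all genes tested were called after cadmium. That share depended on single libraries and on the fit: the 22 calls became 1605 without cadmium replicate 1, between 1 and 9 without any other library, and 1026 with all 7 groups in 1 fit. Limma-voom on the recovered fragments also called 0 of 8, with 499 calls over all genes.

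GSK4716, the ESRRB agonist, gave no detectable difference in any member. S100A6 was at 7.51, 5.40 and 14.4 FPKM, with a log2 fold change of 0.10 (95% confidence interval -0.95 to 1.15). S100A10 was at 15.6, 17.5 and 30.0 FPKM and S100A11 at 299.7, 306 and 360.0 FPKM, both inside the control range. For S100A11 the interval of the log2 fold change ran from -0.41 to 0.43. All 8 genes overlapped the controls. By limma 0 of 8 were called and 0 had an unadjusted p under 0.05, where 0% of all genes tested were called. Limma-voom also called 0 of 8, with 79 calls over all genes.

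DES alone raised S100P, a member that binds ezrin (EZR) and, outside the cell, AGER. It was at 2.94, 2.46 and 1.27 FPKM after DES against 0.411, 0.629 and 1.09 in the controls, which did not overlap although the nearest libraries were close. The log2 fold change was 1.53 ± 0.44 (2.89-fold, adjusted p = 0.038, limma). This was 1 of 8 members called, all higher, where 29.6% of all genes tested were called in either direction. S100A13, at 53.9, 34.9 and 20.3 FPKM, had a log2 fold change of 0.82 ± 0.33 and an adjusted p of 0.105 in limma. S100A11, at 622, 439 and 397 FPKM, lay above all controls, with an adjusted p of 0.127 in limma. Those 2 genes, S100P and S100A11, were the members with all DES libraries above all controls, as 25.9% of all genes were. The call for S100P rested on 17 to 85 fragments per library. It was lost without control replicate 1 (adjusted p = 0.122) or 2 (0.109) and without DES replicate 1 (0.0796) or 2 (0.116), and when all 7 groups shared 1 estimate of the spread (0.214).

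No S100 gene passed the test when cadmium followed DES, against DES alone. The log2 fold changes lay between -1.004 and 0.57, limma called 0 of 8 with 0 under an unadjusted p of 0.05, and it called 0.266% of all genes tested. Limma-voom called 0 of 8 and 0 over all genes. S100A16, S100A11 and S100A14 were higher in 3 of 3 pairs of replicate number, and with that number as a block limma called 0 of 8 (lowest adjusted p = 0.300, S100A11) and 0 over all genes. Against cadmium alone, S100A16 was at 2400.4, 1213 and 1168 FPKM with DES and cadmium, above 584, 579.97 and 551 with cadmium, and its log2 fold change was 1.40 ± 0.43 (adjusted p = 0.0825, limma). S100A13 was at 69.7, 19.98 and 21.9 FPKM against at most 16.2 with cadmium, with a log2 fold change of 1.43 ± 0.56 (adjusted p = 0.136, limma). Here 0 of 8 were called, 2 (those named) had an unadjusted p under 0.05, and 9.89% of all genes tested were called. That share rested on single libraries: the 1453 calls fell to 0 without cadmium replicate 1, 2 or 3, without replicate 3 of DES with cadmium and with a replicate block, and to 1052 and 676 without its replicates 1 and 2. Limma-voom called 1 of 8 (S100A16, adjusted p = 0.0377) and 1814 genes in all. Replicate 1 was the high library of DES with cadmium for S100A16, S100A14, S100A13, S100A11, S100A10 and S100A6. In that library the depth by which the authors scaled FPKM was 0.693 of the fragments on genes, the lowest such ratio of the 21 libraries (highest 1.15), which makes its FPKM values higher than scaling by the fragments on genes would. The interaction of cadmium and DES was called for 0 of 8 members by limma, with 0 under an unadjusted p of 0.05, and for 1.18% of all genes. Those 173 calls became 15 to 410 when 1 library was left out, lowest without DES replicate 2 and highest without replicate 2 of DES with cadmium, and 802 with all 7 groups in 1 fit. Limma-voom called it for 0 of 8 members and for 113 genes in all. For S100A6 it was -0.17 (95% confidence interval -1.52 to 1.18).

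The members best known from myeloid cells and from invasive tumors were scarce. S100A8 and S100A9 form the calprotectin complex of neutrophils and monocytes. S100A8 had between 0 and 20 fragments per library and was highest in control replicate 2, where S100A9 was also the highest of the controls with 87 fragments. S100A9 had between 1 and 406 fragments per library. It was highest in replicate 2 in the controls (7.14 FPKM), after calcium (10.1), after cadmium (1.70) and after DES with calcium (32.5), and its other calcium libraries were at 2.10 and 2.40 FPKM. The means of the controls, of calcium and of DES with calcium rested mainly on that library. Its largest log2 fold change, -1.57 after GSK4716, had an adjusted p of 0.432 in limma. The myeloid markers summed to between 0.505 and 1.203 FPKM in the libraries with DES and calcium and to between 0.179 and 0.242 in the controls. They reached their highest sum, 1.35 FPKM, in a cadmium library, while S100A9 was at 0.105 to 1.70 FPKM after cadmium. After DES alone they summed to between 0.299 and 1.18 FPKM, where S100A9 was at 0.523 to 5.13 FPKM. None of the 8 myeloid markers had a mean of 0.5 FPKM over all libraries. The part of these markers in the level of S100A9 was not tested.

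S100A4 (metastasin), a member that binds non-muscle myosin and is linked to invasion, had between 0 and 11 fragments per library. The cadmium libraries held 6, 2 and 11 fragments and the controls 0, 0 and 2. The counts are too low for a fold change, and the gene was not tested. S100A4 also overlaps S100A3, which is on the same strand, so that fragments of the overlap could have been assigned to either gene. S100P was higher in 1 library than in the others of its group after cadmium (replicate 3, 369 fragments) and after DES with cadmium (replicate 2, 183 fragments, 10.3 FPKM), where the other libraries held 26 to 74 and 27 to 50 fragments.

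The rest of the S100 family was mostly silent in these cells. Of 13 further family genes (12 S100 genes and S100PBP, which encodes a binding protein of S100P), 3 had a mean of at least 0.5 FPKM: S100A1, S100A2 and S100PBP. After calcium 1 of the 3 was called higher (S100A2, above) and 0 lower, beside 675 and 371 of all genes. That call was lost without control replicate 1 or control replicate 2. After DES 1 of the 3 was called lower, beside 1893 of all genes, S100PBP, which fell by 0.96 ± 0.18 on the log2 scale (adjusted p = 0.01, limma). It was also lower by 0.91 ± 0.26 with DES and calcium than with calcium alone (adjusted p = 0.0347, limma). Squamous markers were followed beside S100A2, since both are found in squamous epithelia. They summed to between 5.73 and 14.3 FPKM after calcium and to between 5.24 and 6.97 FPKM in the controls. With DES alone they summed to between 14.01 and 14.8 FPKM, where S100A2 had a mean of 0.751 FPKM. With DES and cadmium they summed to as much as 18.2 FPKM, where S100A2 had 0.945. With DES and calcium they summed to between 14.3 and 16.5 FPKM, where S100A2 had 1.91. KRT10, with a mean of 10.1 FPKM, carried most of the sum, and it rose after DES by 1.24 ± 0.16 on the log2 scale (adjusted p = 0.00289, limma). SPRR1B, a cornified envelope precursor, was the only other of the 9 squamous markers to pass the filter. It passed only through its calcium libraries, so no test of it is given. It was at 0 in the 3 controls and at 0.145, 4.43 and 6.20 FPKM after calcium (2, 48 and 86 fragments). With DES and calcium it was at 0, 0.596 and 0.523 FPKM. Its values were thus higher with calcium alone than with DES and calcium in 2 of 3 calcium libraries, while KRT10 was higher by 1.05 with DES and calcium than with calcium alone (adjusted p = 0.0127, limma). The part of these markers in the S100 levels was not tested. KRT5, KRT14 and TP63 had means of 0.165, 0.0249 and 0.190 FPKM.

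Annexins are calcium-dependent membrane-binding proteins and the main partners of several S100 proteins. Of 12 annexin genes 8 passed the filter, and ANXA1, the known partner of S100A11, did not, with a mean of 0.231 FPKM. After calcium 2 of the 8 were called higher and 0 lower, where 675 of the 14686 genes tested were called higher and 371 lower (545 and 560 with scaling by total fragments). ANXA2 was at 338, 330 and 340 FPKM against 96.6, 84.6 and 119.6 in the controls, and rose by 1.76 ± 0.16 on the log2 scale (3.38-fold, adjusted p = 0.00951, limma). ANXA3 rose by 3.75 ± 0.38 (13.5-fold, adjusted p = 0.00979, limma) from a low level, at 3.27, 5.98 and 5.57 FPKM against at most 0.362. ANXA2 has 3 pseudogenes in the table, and 1 of them, ANXA2P2, had a mean of 102 FPKM beside 209 for ANXA2, so the split of reads between them is uncertain.

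The interaction of calcium and DES was called negative for both of these annexins and positive for none, and over all genes it was called negative for 350 and positive for 183. It was -1.25 ± 0.30 for ANXA2 (adjusted p = 0.0442, limma) and -3.30 ± 0.73 for ANXA3 (adjusted p = 0.0342, limma). With DES and calcium ANXA2 was at 279, 336 and 249 FPKM, and DES alone already raised it by 1.02 ± 0.25 on the log2 scale (adjusted p = 0.0221, limma). ANXA3 was at 1.35, 2.29 and 0.621 FPKM with DES and calcium, and it was lower by 1.85 ± 0.48 than with calcium alone (adjusted p = 0.0262, limma). DES alone raised 4 of the 8 annexins and lowered 0, the 4 including ANXA2, ANXA5 (0.63) and ANXA11 (0.74 on the log2 scale). Over all 14686 genes tested, 2447 were called higher after DES and 1893 lower, and with scaling by total fragments the balance turned to 1861 and 2538. With DES and cadmium against cadmium, 2 of the 8 were called higher beside 699 of all genes (754 lower; 359 and 1043 with scaling by total fragments), ANXA11 by 2.38 and ANXA9 by 1.81 on the log2 scale. Both calls were lost without any 1 of the cadmium libraries. Without control replicate 1 or control replicate 2, the annexin calls after calcium (ANXA2 and ANXA3), after DES (all 4) and for the interaction (ANXA2 and ANXA3) were lost. ANXA5 was higher by 1.02 with DES and calcium than with calcium alone (adjusted p = 0.00343, limma). After cadmium, after GSK4716 and when either metal with DES was set against DES alone, limma called 0 of the 8.

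**Figure D5:**
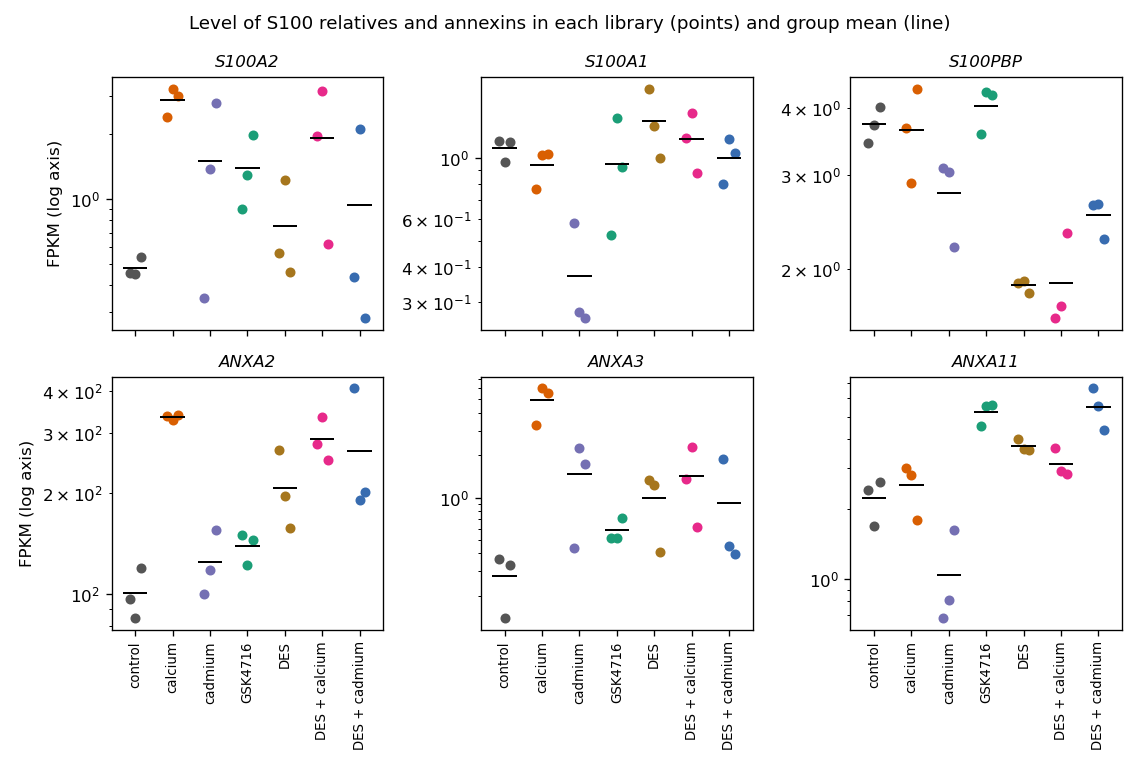
FPKM on a log axis of 3 further S100 family genes and 3 annexins by group, with 1 point per library (replicates 1, 2 and 3 from left to right) and a line at the group mean. ANXA2 stands at 330 to 340 FPKM and S100A2 at 2.40 to 3.25 FPKM in the calcium libraries, above all controls.

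Among 12 other binding partners of S100 proteins 11 passed the filter. After calcium 2 of the 11 were called higher and 0 lower (over all genes 675 and 371): MYH9, the heavy chain of non-muscle myosin bound by S100A4, by 1.65 ± 0.17, and EZR, the ezrin bound by S100P, by 1.30 ± 0.20 on the log2 scale (adjusted p = 0.0102 and 0.0223, limma). The interaction of calcium and DES was called negative for MYH9 (-1.64 ± 0.28, adjusted p = 0.015) and for AHNAK, a giant scaffold protein bound by S100A10 with ANXA2 (-1.35 ± 0.27, adjusted p = 0.0245, limma), and for no other of the 11, beside 350 negative calls over all genes. Without control replicate 1 or control replicate 2 the calls of MYH9 and EZR after calcium and of AHNAK for the interaction were lost, while that of MYH9 for the interaction was kept. CACYBP, the calcyclin-binding protein that joins S100A6 to a ubiquitin ligase, was the 1 of 11 partners called higher after DES, beside 2447 of all genes (1.41 ± 0.17 on the log2 scale, adjusted p = 0.00217, limma). With DES and calcium against calcium, where 2722 of all genes were called higher and 2426 lower (2110 and 3191 with scaling by total fragments), CACYBP was higher by 2.13 and MYH9, AHNAK and CAPN1 were lower by 1.498, 1.19 and 0.45 on the log2 scale.

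Of 10 receptors and surface partners 5 passed the filter, and limma called 0 of them after calcium, with a lowest adjusted p of 0.0795, where 7.12% of all genes were called. AGER, which several secreted S100 proteins bind, had a mean of 2.56 FPKM, and the toll-like receptor TLR4 had 0.00124. DES raised BSG (basigin, a receptor for S100A9) by 0.88 ± 0.20 and lowered ALCAM by 0.84 ± 0.21 on the log2 scale, 1 of the 5 in each direction (adjusted p = 0.0198 and 0.0238, limma), where 29.6% of all genes were called. Both calls were lost without control replicate 1 or control replicate 2. Markers of the luminal epithelium moved as well: after calcium 3 of 10 were called higher (CDH1, KRT8 and KRT18), beside 675 of all genes, and these 3 calls were lost without control replicate 1 or control replicate 2. After DES CDH1 was called higher, and GATA3 and FOXA1 were among those called lower, where 2447 of all genes were called higher and 1893 lower. GATA3 was also lower by 1.11 on the log2 scale with DES and calcium than with calcium alone (adjusted p = 0.00823, limma). The interaction of calcium and DES was -1.55 ± 0.22 for CDH1 (adjusted p = 0.00579, limma). CDH1 rose by 2.01 ± 0.16 with DES alone and by 1.04 ± 0.15 with calcium on the log2 scale. So the negative value shows that these 2 rises did not add up. The part of the luminal markers in the S100 levels was not tested.

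The genes most like each member over the 21 libraries were found by Pearson's r of log2(FPKM + 0.1), among genes with a mean of at least 2 FPKM. For S100A6 the nearest was S100A10 (r = 0.912), and the reverse held as well, followed for S100A6 by KRT81 (0.903) and F2RL1 (0.899). For S100A11 they were FXYD5 (0.937) and ANXA2 (0.919). For S100A13 the nearest was VAMP8 (0.954), for S100A14 MYL12B (0.934) and for S100A16 CLIC1 (0.953). S100P was nearest to CCDC130 (0.850) and S100A9 to SRPK1 (0.893), with r lower than for the abundant members. The libraries form treatment groups and share the depth by which the authors scaled them, so these values describe likeness only.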

How the data were processed

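RNA-seq was carried out on poly-A mRNA from 21 MDA-MB-453 libraries in 7 groups of 3. Per the submitters' processing notes, reads were aligned to GRCh38.p14 with HISAT2 2.0.5 and counted with featureCounts 1.5.0-p3. The values used are FPKM per gene, as the authors deposited them. FPKM times gene length was a whole multiple of 1 step for 100% of values (tolerance 0.05), which gave back fragments. The depth by which the authors scaled was 0.693 to 1.15 of the fragments on genes, and how it was set is not given in the sources used here.

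Samples were grouped by the treatment in the labels. Log2(FPKM + 0.1) of the 14686 genes with a mean of at least 0.5 FPKM was fitted in limma 3.58.1 (R 4.3.3; lmFit, eBayes with trend) with only the groups compared, and p-values (two-sided) were adjusted by Benjamini-Hochberg over all genes tested, with a threshold of 0.05. A fold change on this scale understates that of low genes. Confidence intervals are at 95%. The study tested counts, which are not used here, and its own comparisons are not used here. Tables were made with Python 3.11.15 and pandas 2.3.3. The fit was also run on simulated counts with the same spread for every gene. That setting is simpler than these data, so it does not check the fit at the spread seen here.

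The members and lists were chosen with earlier results of these data known. All 10 members are named. A gene of the lists is named where its mean is at least 0.5 FPKM, or to say that it is low. Fold changes are given for members with an unadjusted p under 0.05, and as values for others, and for listed genes that were called, up to 3 in each direction per list. The 3 most alike genes were computed for each member.

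Replicate numbers were taken as pairing libraries only in DES with calcium against DES (correlations of deviations 0.132, 0.103 and 0.280) and DES with cadmium against DES (0.472, 0.121 and 0.313), where every pair was over 0.1; this comes from the data, not from the labels. All values are from the fit without the block unless the block is named. Protein sequences were not used here, and 1 listed gene is not reported here.

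The alternatives were a pseudocount of 1, no filter, a mean of at least 2 FPKM, median-ratio scaling, scaling by total fragments, all 7 groups in 1 fit, array weights, limma-voom on the recovered fragments, the replicate number as a block, and leaving out each library in turn.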

Additional observations from a re-analysis of the deposited data

Results flagged for a closer look

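The interaction of calcium and DES for S100A6 was -3.35 on the log2 scale (adjusted p = 0.0214, limma with Benjamini-Hochberg adjustment over all genes). It stands here because the effect of calcium differed between cells without DES and cells with DES by a direct test of that difference. S100A6 was at 109 to 165 FPKM with calcium alone and at 9.51 to 33.3 FPKM with DES and calcium. Groups of 3 libraries were not checked for a single outlying library by Dixon's test.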

How the results depend on the processing

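For the 17 fold changes of S100 genes with an unadjusted p under 0.05, the direction was kept: of 273 values, 220 stayed on the same side of the threshold, 32 lost their call, 21 gained one and 0 reversed. For 38 called fold changes of the listed genes, recomputed after the data were seen, 437 of 596 values kept their call, 159 lost it and 0 reversed; 18 of 25 were lost without control replicate 1, 17 of 25 without control replicate 2 and 25 of 38 with no filter. Other fold changes were not recomputed here. S100A6 after calcium lay between 3.77 and 4.40 and lost its call only with no filter on low values (adjusted p = 0.0543); its interaction lay between -3.89 and -3.00. With no filter (45127 genes tested, which include genes at 0 in every library compared), the number of members called was 0 for calcium against control (4 as reported), 0 for DES against control (1), 1 for DES with calcium against calcium (2) and 0 for the interaction of calcium and DES (1). With array weights it was 7 for calcium (2270 of 14686 genes called in all), 6 for cadmium (0 as reported; 8325 in all), 7 for DES (10334 in all), 2 for DES with cadmium against cadmium (0; 8241 in all), 3 for the interaction of calcium and DES (2624 in all) and 1 for that of cadmium and DES (0; 6358 in all). With all 7 groups in 1 fit it was 0 for DES (4047 in all) and 3 for DES with cadmium against cadmium (5459 in all), and limma-voom on recovered fragments gave 1 for the latter (1814 in all). With a replicate block it was 3 for calcium (S100A11 lost its call, adjusted p = 0.0728; 260 in all) and 0 for DES (3117 in all), and the block changed no other count of members; the labels do not say that the numbers pair cultures. Leaving out 1 library gave 1 to 5 calls for calcium (7 to 758 over all genes), 0 to 2 for DES (1930 to 5078), 1 to 2 for DES with calcium against calcium (3263 to 4260), 0 to 1052 over all genes for DES with cadmium against cadmium (1453 as reported), 1 to 1605 for cadmium (22), 15 to 410 for the interaction of cadmium and DES (173) and, again for members, 0 to 2 for the interaction of calcium and DES (181 to 830). The causes were not tested, apart from the fewer libraries or the larger number of genes tested. Scaling by total fragments moved the median log2 fold change of all genes to -0.13 after calcium, -0.12 after DES, -0.20 for DES with calcium against calcium and -0.39 for DES with cadmium against cadmium, and 0 of these 17 and 38 fold changes reversed. Depth limits S100A4 and S100A8, with at most 20 fragments in a library.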
